A study of Mus musculus with 8 samples.

Results

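The cells described here were the 1390 cells, of 20778 in all, that carry the name leukocyte in the cell type column deposited with the counts, and all 1390 came from a single cluster, number 5 of the annotation. They were taken from left lung grafts of 8 male mice by droplet single-cell RNA sequencing, with 10000 cells loaded per library. In the B6→B6 group (5 mice) the graft came from a C57BL/6 (B6) donor, the syngeneic control. In the HLA→B6 group (3 mice) the donor carried the human transgene Tg(HLA-A2.1)1Enge on a C57BL/6 background, and this group models bronchiolitis obliterans syndrome (BOS), the airway form of chronic lung graft rejection. All recipients were B6 mice, none received immunosuppression, and every graft was taken 1 month after transplantation. Graft-derived and recipient-derived cells were not told apart, so a leukocyte could be of either origin. The levels below are counts of unique molecular identifiers (UMIs, 1 per captured transcript) of all leukocytes of a mouse summed and scaled to a total of 1000000 (CPM), and the mice were the replicates.

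Leukocyte is a name for all white blood cells, and these cells could be placed more narrowly. Neutrophils, the most numerous white cells of blood, are made in the bone marrow and enter inflamed tissue along chemokine gradients sensed by receptors such as Cxcr2. While they mature they fill a series of granules with antimicrobial proteins and then stop transcribing those genes, and the mature cell has little RNA. Its cytoplasm is packed with calprotectin, the complex of S100a8 and S100a9, and its production in the marrow depends on the growth factor receptor Csf3r.

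The leukocytes carried the transcripts of neutrophils and almost none of the other granulocytes. Each of the 1390 cells held a UMI of at least 3 of 22 neutrophil markers, with a median of 11 markers per cell. Of these 22 markers, 20 had their highest level in leukocytes among the 11 cell types of the annotation, and 11 were at least 10 times higher than in the next type. The summed level of the 22 markers was 202392 ± 34961 CPM (SD, n = 7 mice) in leukocytes and 4916 CPM in mast cells, the type with the next highest sum. The 2 markers that were higher elsewhere were Hdc, the enzyme that makes histamine, with 1645 CPM in leukocytes and 3518 CPM in mast cells, and Lcn2, a protein that binds bacterial iron carriers, with 2054 CPM in leukocytes and 2069 CPM in type 2 pneumocytes. Eosinophil markers summed to 5.32 CPM, and Prg2, Il5ra, Ear6 and Prg3 had no UMI in any leukocyte. Basophil and mast cell markers summed to 18.9 CPM, with Fcer1a, Ms4a2, Cpa3 and Cyp11a1 at 0. Monocyte markers summed to 585 CPM, and 0.719% of leukocytes held at least 3 of the 10, against 89.4% of the cells labelled monocyte. By these markers the cells are neutrophil-like. The same cells were clustered on these genes, so the levels that follow are a description of the cluster and carry no test.

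Calprotectin transcripts made up a large part of all RNA in these cells. S100a8 and S100a9 together gave 19.5%, 21.2%, 16.4%, 12.97% and 12.2% of leukocyte UMIs in the 5 B6→B6 mice, taken in order of replicate. The shares were 17.4%, 14.4% and 18.8% in the 3 HLA→B6 mice, so the groups overlapped. S100a8 stood at 98908 ± 20705 CPM (SD, n = 7 mice) in leukocytes and at 116 CPM in alveolar macrophages, the next type. S100a9 stood at 64134 ± 12812 CPM and at 72.6 CPM in mast cells. Only 2 of the 1390 cells had no UMI of either gene, and in the median cell the pair took 16.9% of the UMIs. A UMI of S100a8 was found in 99.8% of leukocytes at a median depth of 678.5 UMIs, and in 0.868% of T cells, which should lack the gene, at a median depth of 1648 UMIs. S100a8 had no UMI in the T cells of 6 of 8 mice and no UMI in the monocytes of 6 of 8 mice, and its highest level outside leukocytes in both types was in HLA→B6 replicate 1, with 141 CPM in T cells and 278 CPM in monocytes. That mouse also held the most leukocytes. The study's methods describe the removal of free RNA with SoupX, and the sources used here do not say whether the deposited counts precede or follow that step.

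Ranked by the ratio of the leukocyte level to the highest level among the other 10 types, the 25 leading genes included granule proteins, calprotectin, stefins, resistins and surface receptors. Among the 1158 genes with at least 100 CPM in leukocytes, 357 were highest in leukocytes, 148 were at least 2 times the next type, 32 at least 10 times and 15 at least 50 times. The granule proteins Ngp, Camp (the precursor of the antimicrobial peptide cathelicidin) and Ltf (lactoferrin) had ratios of 2120, 2065 and 569, and they are taken up below because few cells held them. S100a9 and S100a8 had ratios of 872 and 849. The stefin genes Stfa2l1, Stfa1 and Gm5483, of a family of cysteine protease inhibitors, had ratios of 583, 91.8 and 272. Stfa1 rested on B6→B6 replicate 1, with 437 CPM there, and its mean fell from 106 to 50.3 CPM without that mouse, below the 100 CPM asked for. The resistin family gave Retnlg, with 10081 ± 4058 CPM against 17.1 CPM in mast cells, and Retn, with 144 ± 77.3 CPM against 1.34 CPM in alveolar macrophages. Surface proteins of neutrophils among the 25 were Csf3r (1852 ± 464 CPM, ratio 25.5), the decoy receptor Il1r2 (837 ± 291 CPM, ratio 38.4) and Ly6g, the antigen by which mouse neutrophils are sorted (134 ± 115 CPM, ratio 124). The metalloproteinase Mmp9, which is stored in gelatinase granules, stood at 993 ± 345 CPM with a ratio of 24.01. The 2 genes of the interleukin 1 family were also among them, Il1b at 5172 ± 1761 CPM against 256 CPM in monocytes and Il1f9 at 654 ± 182 CPM against 20.2 CPM in mast cells. The rest were Mrgpra2b, Ceacam10, AC110211.1, Nlrp12, G0s2, Gm20406, Ikbkap, Slc40a1 (the iron exporter ferroportin) and Slfn4, with ratios between 19.5 and 107. The levels of mast cells rest on 85 cells in all and 3 mice with at least 10, those of plasma cells on 2 such mice and those of type 2 pneumocytes on 1. With all cells of a type pooled instead of averaged over mice, 23 of the 25 were again among the leading 25.

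**Figure D1:**
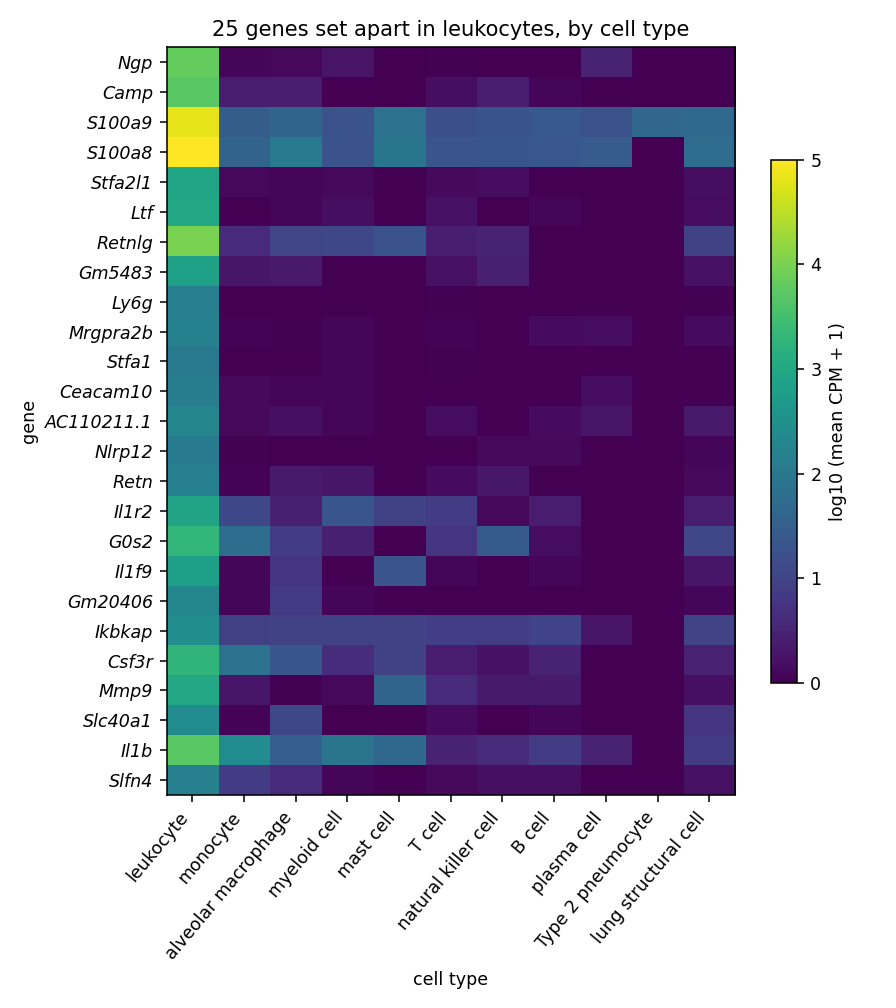
Mean level of the 25 genes (rows) in each of the 11 cell types (columns) as log10 of CPM + 1, averaged over mice with at least 10 cells of the type (type 2 pneumocytes rest on few cells). The leukocyte column is the brightest in every row, from 98908 CPM for S100a8 to 106 CPM for Stfa1, and the largest level in any other column is the 256 CPM of Il1b in monocytes.

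The sequences upstream of 3 of these genes are shown because the C/EBP factors, which switch on granule and calprotectin genes during neutrophil maturation, have a known DNA motif. The letters TTNNGCAA and, for the other strand, TTGCNNAA were searched in the 250 bases before each RefSeq gene start of the mouse build GRCm38.p6. Of the 25 genes, 19 had a RefSeq promoter, and 7 of the 19 (36.8%) held the motif, against 10.8% of 27025 genes. They were S100a9, Retnlg, Ltf, Ngp, Ly6g, Nlrp12 and Stfa1. The letters GAGGAA on either strand, the core bound by PU.1, were in 8 of the 19 (42.1%) against 25.9% of all genes. A match is a run of letters and not a shown binding site. Below, the bases run 5′ to 3′ on the gene's strand, end just before the RefSeq start, and have in capitals the match to TTNNGCAA or TTGCNNAA.
S100a9 (chr3:90695722-90695971, minus strand): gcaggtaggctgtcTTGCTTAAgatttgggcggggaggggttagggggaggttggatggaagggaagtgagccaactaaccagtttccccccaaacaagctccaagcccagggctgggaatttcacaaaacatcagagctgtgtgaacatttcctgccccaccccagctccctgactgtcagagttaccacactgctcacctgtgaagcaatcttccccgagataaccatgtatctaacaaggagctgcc
Retnlg (chr16:48872358-48872607, plus strand): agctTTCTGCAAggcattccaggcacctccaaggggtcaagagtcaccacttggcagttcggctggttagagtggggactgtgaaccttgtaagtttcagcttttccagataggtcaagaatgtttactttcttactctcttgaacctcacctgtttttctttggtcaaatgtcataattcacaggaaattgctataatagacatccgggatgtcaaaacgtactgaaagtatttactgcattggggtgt
Ltf (chr9:111019042-111019291, plus strand): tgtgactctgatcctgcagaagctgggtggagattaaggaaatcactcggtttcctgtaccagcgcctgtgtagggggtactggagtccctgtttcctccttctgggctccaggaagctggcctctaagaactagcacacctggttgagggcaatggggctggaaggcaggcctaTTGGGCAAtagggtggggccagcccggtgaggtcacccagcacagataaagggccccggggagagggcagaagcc

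The receptors by which neutrophils find and recognise their targets were mostly at their highest here. Of 12 chemoattractant receptors, 10 were highest in leukocytes, and their sum was 4318 ± 676 CPM (SD, n = 7 mice) against 2202 CPM in mast cells. Cxcr2, the receptor of the neutrophil chemokines, stood at 1138 ± 246 CPM, C5ar1, the receptor of the complement fragment C5a, at 917 ± 251 CPM, and Fpr1, which senses bacterial formyl peptides, at 222 ± 48.8 CPM. C3ar1 was at 0.454 CPM. Of the 12 measured pattern recognition and lectin receptors, 8 were highest in leukocytes, among them Clec4d (1092 ± 241 CPM), Clec4e (716 ± 238 CPM) and Trem1 (371 ± 207 CPM). For growth factor and cytokine receptors the count was 5 of 14, and for the NADPH oxidase, the enzyme of the oxidative burst, 3 of 7.

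Among 22 cytokines and chemokines the leukocytes were the top type for 6. Beside Il1b these included Cxcl2, a chemokine for neutrophils, at 3264 ± 1693 CPM against 240 CPM in monocytes, and Il1rn, the antagonist of the interleukin 1 receptor, at 290 ± 134 CPM against 114 CPM in alveolar macrophages. Ccl6 stood at 5145 ± 947 CPM, below its 14676 CPM in mast cells. Il6 and Il10 had no UMI in any leukocyte. All 9 calprotectin, S100 and stefin genes were highest in leukocytes, with a sum of 178253 ± 32933 CPM. MHC class I genes went the other way, since none of the 9 was highest here and their sum of 7708 ± 715 CPM was the lowest of the 11 types. Over 5879 genes the profile closest to that of the leukocytes was that of monocytes, with a Pearson correlation of 0.70 on log2(CPM + 1), followed by alveolar macrophages with 0.61. These are correlations across genes, which are not independent replicates.

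Leukocytes were also the shallowest of the 11 types, with medians of 678.5 UMIs and 337 genes per cell. Their median depth in B6→B6 replicates 1 to 5 was 629, 868, 780, 673.5 and 916 UMIs, and in HLA→B6 replicates 1 and 2 it was 626 and 609 UMIs. Monocytes of the same mice had 2307 ± 397 UMIs (SD, n = 7 mice), against 729 ± 126 UMIs for leukocytes. The difference of -1579 UMIs had the same sign in 7 of 7 mice (exact two-sided permutation of signs, p = 0.0156, the smallest that 7 mice allow). The shallowest leukocyte had 396 UMIs, and 215 of the 1390 had fewer than 500. Genes at low levels were therefore missed in most cells. When each cell was thinned to 500 UMIs, 34.5% of the 1175 remaining leukocytes held an Il1r2 UMI and 56.8% a Csf3r UMI, against 1.28% and 3.64% of monocytes.

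The share of leukocytes varied widely among mice and was not shown to differ between the groups. Leukocytes were 1.80%, 5.48%, 12.04%, 1.81% and 1.96% of all cells in B6→B6 replicates 1 to 5, which held 17, 74, 293, 74 and 17 leukocytes. They were 13.2%, 1.40% and 0.401% in HLA→B6 replicates 1 to 3, which held 864, 46 and 5. The highest share of each group came from 1 mouse, the groups overlapped, and the lowest 2 of the 8 shares were both in HLA→B6 mice. The group means were 4.62% ± 4.44 (SD, n = 5) for B6→B6 and 5.001% ± 7.12 (SD, n = 3) for HLA→B6, a difference of 0.385 percentage points (exact two-sided permutation test, p = 0.929, with 0.0179 the smallest p that 5 against 3 mice allow). HLA→B6 replicate 1 alone held 62.2% of all leukocytes, and without it the HLA→B6 mean was 0.900% and the difference -3.72 percentage points (exact permutation test, p = 0.333, with 0.0476 the smallest possible). The number of leukocytes per monocyte ran from 0.0435 in HLA→B6 replicate 3 to 1.601 in B6→B6 replicate 3. Shares are of the cells that survived dissociation and filtering, and a share falls when other cells are more numerous.

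**Figure D2:**
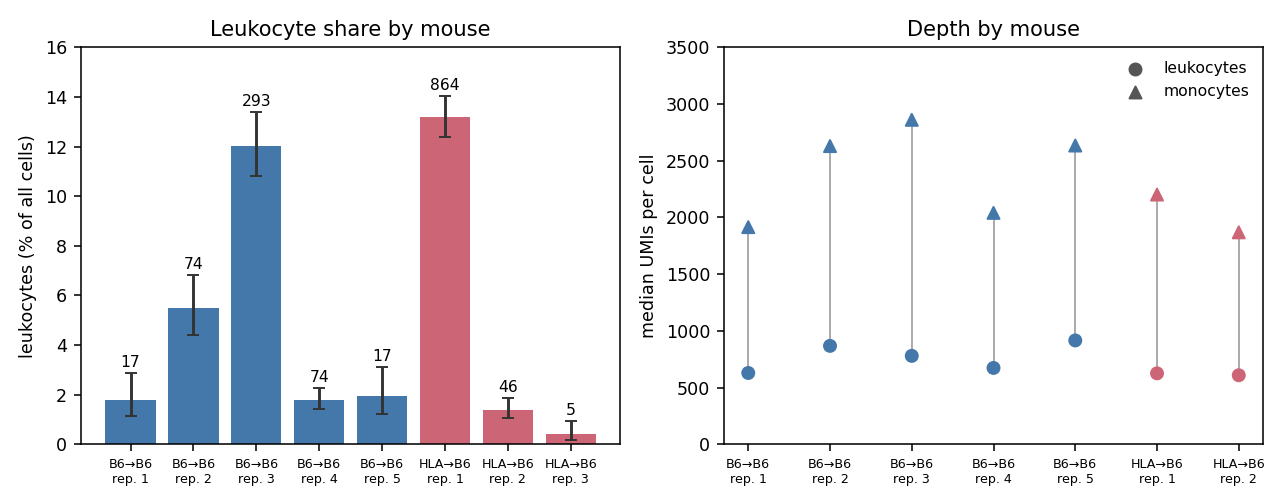
Left, leukocytes as a percentage of all cells of each mouse, with 95% Wilson intervals (counting error only) and the number of leukocytes above each bar. Right, the median UMIs per leukocyte (circles) and per monocyte (triangles) of each mouse with at least 10 leukocytes, blue for B6→B6 and red for HLA→B6. The shares run from 0.401% to 13.2% with both groups spread over most of that range, and in all 7 mice the leukocytes lie below the monocytes.

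Shared barcodes and doublet calls touched few leukocytes. The 8 libraries held 868 to 6544 cells. Of the leukocytes, 25 (1.80%) shared their barcode with a cell of another mouse, no barcode belonged to leukocytes of both mice, and Scrublet marked 58 (4.17%) as doublets, 50 of them in HLA→B6 replicate 1. HLA→B6 replicate 3, with 5 leukocytes, was left out of levels and tests, so that B6→B6 rests on 5 mice and HLA→B6 on 2 below.

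Granule transcripts were concentrated in a handful of leukocytes. A UMI of Camp, Ngp or Ltf, which are transcribed at the myelocyte and metamyelocyte stages in the marrow, was seen in 1, 7, 5, 2 and 0 leukocytes of B6→B6 replicates 1 to 5 and in 27, 1 and 0 of HLA→B6 replicates 1 to 3. Those with 10 or more such UMIs were 13 cells of 1390, namely 1, 4 and 2 in B6→B6 replicates 1, 2 and 3 and 5 and 1 in HLA→B6 replicates 1 and 2. A single cell of B6→B6 replicate 1 held all 1013 of that mouse's UMIs of the 3 genes, which is why Ngp stood at 33516 CPM there, against 9635 CPM in B6→B6 replicate 2 and at most 1670 CPM in the other 5 mice. Without that mouse the mean of Ngp was 2038 CPM in place of 6535 CPM, that of Camp 1897 in place of 5183 CPM, and that of Ltf 382 in place of 1014 CPM. The high ratios of these genes thus came from few cells, whereas those of S100a8, S100a9 and Retnlg, which had a UMI in 83.9% to 99.8% of leukocytes, did not.

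The 13 cells differed from the other 1377 leukocytes in genes that had not been used to pick them. They were deeper, with a median of 2194 UMIs against 676. Chil3, a chitinase-like protein of immature neutrophils, stood at 4906 CPM against 31.2 CPM, the protease inhibitor Serpinb1a at 1078 against 17.0 CPM, Ly6g at 1105 against 86.1 CPM and Lcn2 at 12293 against 975 CPM. Cebpe, the C/EBP factor needed for specific granules, stood at 566 CPM, from 21 UMIs, against 17.0 CPM. Il1b had no UMI among the 37095 of these cells and stood at 4370 CPM in the others, so that it was at least 54.0-fold lower (a count of 0 taken as 3 over all 13 cells). Csf3r stood at 135 against 1822 CPM and Ccl6 at 135 against 5712 CPM. Transcripts of Mpo and Ctsg, whose proteins fill the earliest granules, were at 0 throughout the 1390 cells, and the proteins were not measured. These levels pool cells over mice and carry no test. The deepest of the 13 cells, with 7064, 5032, 4561 and 4410 of the 37095 UMIs, came from B6→B6 replicates 1 and 2. The pooled levels, the bound for Il1b included, rest most on these cells.

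**Figure D3:**
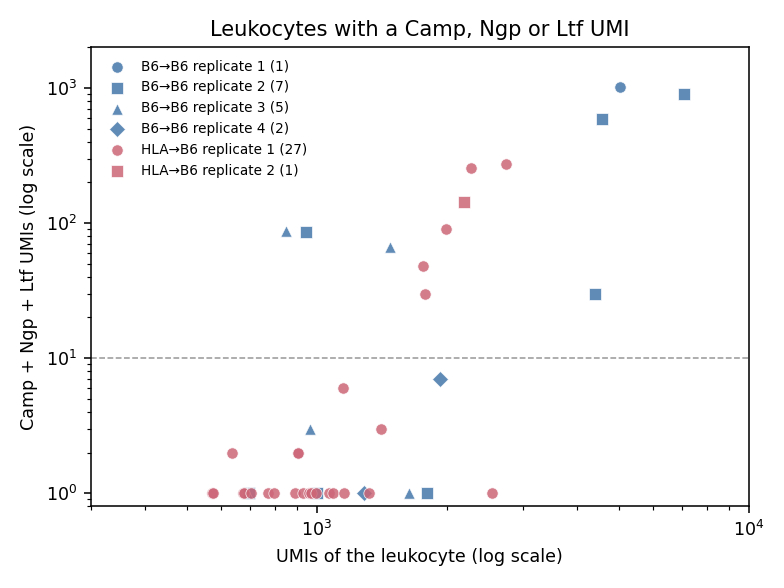
Each point is one of the 43 leukocytes with a UMI of Camp, Ngp or Ltf, with its UMIs in all on the horizontal axis and the summed UMIs of the 3 genes on the vertical axis, both on log scales. Colours give the group, symbols the replicate, and the number of points per mouse is in the key. The 13 cells above the dashed line at 10 hold nearly all of these transcripts, and the single cell of B6→B6 replicate 1 holds 1013.

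Within a mouse the genes that varied most between leukocytes, relative to what depth alone would give, were of 3 kinds. Among the leading 20 of 978 genes, Hbb-bs, Hba-a1 and Hba-a2 (globins of red cells) and Igkc, Ighm, Ighg2c and Jchain (immunoglobulin genes of B cells and plasma cells) belong to other cell types. Of the 1001 Hbb-bs UMIs, 498 lay in 1 leukocyte, and of the 2208 Igkc UMIs 766 did. The second kind was Camp, Ngp and Ltf, the granule genes described above, with Lcn2. Lcn2 was spread more widely, with a UMI in 489 leukocytes (35.2%) against at most 41 for each of those 3 genes. The third kind was expressed in most cells, with S100a8, S100a9, Retnlg, Lyz2 (lysozyme), Wfdc17, Fth1, Actb and Malat1, and Ccl5 completed the 20. Over the leukocytes of at least 500 UMIs in the 4 mice with at least 66 of them, the share of UMIs from S100a8 and S100a9 rose with that from Retnlg (Spearman's rho 0.48 to 0.64) and from Lyz2 (0.21 to 0.57). The same share ran against that of Il1b, with rho of -0.42, -0.25 and -0.34 in B6→B6 replicates 2, 3 and 4 and -0.17 in HLA→B6 replicate 1. These are correlations over cells of 1 library each. The values are shares of 1 total, so a large part of the UMIs in one gene lowers the share left for the others.

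The comparison of HLA→B6 with B6→B6 leukocytes asked whether these cells differed in the grafts that model chronic rejection. With edgeR's quasi-likelihood test no gene of 913 tested passed an adjusted p of 0.05 (0% of tested genes in either direction, smallest adjusted p = 0.878). At an unadjusted p below 0.05 there were 47 genes, 32 higher in HLA→B6 (3.50% of those tested) and 15 lower (1.64%). DESeq2 also called none, with 52 at an unadjusted p below 0.05. The HLA→B6 group rests on 2 mice, one with 864 leukocytes and the other with 46. The values below are therefore given as measured, for the 10 genes with the smallest p in each direction, and all log2 differences are HLA→B6 minus B6→B6 with their standard error.

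Of the 10 lower genes, 5 (Junb, Fos, Fosb, Ier2 and Btg2) are early response genes, which cells switch on within minutes of a stimulus. Junb, a subunit of the AP-1 factor, stood at 5929, 7020, 6300, 6826 and 5681 CPM in B6→B6 replicates 1 to 5 and at 2388 and 3849 CPM in HLA→B6 replicates 1 and 2, a log2 difference of -1.03 ± 0.25. The groups did not overlap. Il1b stood at 4681, 5842, 7372, 6899 and 5426 CPM in B6→B6 and at 2476 and 3509 CPM in HLA→B6 (-1.01 ± 0.25), again without overlap. In the left-out HLA→B6 replicate 3, with 5 cells, Junb stood at 1855 CPM, below the B6→B6 range, while Il1b at 6122 CPM and Fos at 5195 CPM lay within it. Btg2, which restrains cell division, ran from 1186 to 1546 CPM in B6→B6 and stood at 585 and 906 CPM in HLA→B6 (-0.89 ± 0.26). Fos, the other AP-1 subunit, ran from 4277 to 5783 CPM and stood at 1525 and 4019 CPM (-0.85 ± 0.35). Among the rest were Ier2, Fosb, Kdm6b (a histone demethylase), Tmem14c and Klf2, with log2 differences from -1.95 for Fosb to -0.67 for Klf2, and of these Ier2 and Fosb overlapped between the groups. Fosb ran from 187 to 766 CPM in B6→B6 and stood at 46.1 and 226 CPM in HLA→B6, and its log2 difference was -0.73 without HLA→B6 replicate 1, and -2.87 when replicate 2 of that group was left out instead. Adjusted p was 0.878 to 0.944 for the 10 genes (edgeR).

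Of the 15 immediate early and heat shock genes, 11 were tested, none passed, all 11 were lower in HLA→B6 and 6 had an unadjusted p below 0.05, with a median log2 difference of -1.01 against -0.01 over all 913 genes. Their CPM did not overlap between the groups for 2 of the 11, where 4.93% of all tested genes were lower without overlap. Summed over the list, the level was 24342, 24178, 24605, 26846 and 24320 CPM in B6→B6 replicates 1 to 5 and 10828 and 19131 CPM in HLA→B6 replicates 1 and 2, and 17069 CPM over the 5 cells of replicate 3. The sum was also lower in the monocytes of the HLA→B6 mice, at 6397 to 8301 CPM over 3 mice against 10849 to 17809 CPM over 5 in B6→B6, and in T cells it ran from 4379 to 6202 CPM against 5894 to 10809 CPM, with overlap. These genes respond to tissue dissociation, and the part of handling in the difference was not tested.

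The 10 higher genes were genes of MHC class II and class I, an immunoglobulin gene, ribosomal protein genes, S100a10 and Cox17. Cd74, the chaperone of MHC class II, stood at 125, 0, 191, 549 and 0 CPM in B6→B6 replicates 1 to 5 and at 2144 and 1472 CPM in HLA→B6 replicates 1 and 2 (log2 difference 3.28 ± 0.92). H2-Eb1, a class II chain, was at 0 in 4 B6→B6 mice and at 183 CPM in replicate 4, and stood at 453 and 481 CPM in HLA→B6. Both sets of values were without overlap, which held for 5.48% of tested genes in this direction. Ighm, the heavy chain of IgM, ran from 0 to 201 CPM in B6→B6 and stood at 684 and 424 CPM in HLA→B6 (2.69 ± 0.74). H2-K1, an MHC class I chain present on nearly all cells, ran from 250 to 574 CPM and stood at 714 and 764 CPM (0.91 ± 0.28). Among the rest were H2-Aa, S100a10, Rpl34, Rpl35 and Cox17, with log2 differences from 0.71 for Cox17 to 3.03 for H2-Aa, and of these H2-Aa overlapped between the groups. In HLA→B6 replicate 3, Cd74 stood at 371 CPM, H2-Eb1 at 186 CPM and H2-K1 at 371 CPM, of which Cd74 and H2-K1 lay within the B6→B6 range. Adjusted p was 0.878 for all 10 (edgeR). Of 73 tested ribosomal protein genes, a set looked at after their values were seen, 66 were higher in HLA→B6, 14 with an unadjusted p below 0.05, where 3.50% of all tested genes were, and their median log2 difference was 0.54 against -0.01 over all genes.

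Of the 15 marker sets of other cells, 4 were higher in both HLA→B6 mice than in every B6→B6 mouse, namely those of B cells, plasma cells, interstitial macrophages and natural killer cells, and the other 11 overlapped. Among single tested genes, 5.48% were higher in HLA→B6 without overlap. A B cell marker UMI was found in 0 to 16.2% of the leukocytes of the B6→B6 mice and in 59.7% and 32.6% of those of HLA→B6 replicates 1 and 2. The summed B cell markers (8 genes) were at 0 to 292 CPM in B6→B6 and at 4281 and 623 CPM in HLA→B6. The 5 plasma cell markers were at 0 to 91.5 CPM and at 442 and 113 CPM, with Derl3 at 0 in all leukocytes. The 7 interstitial macrophage markers were at 164 to 787 CPM and at 1002 and 1415 CPM, and the 6 natural killer cell markers at 0 to 604 CPM and at 768 and 821 CPM. Ccl5 alone gave 588 CPM of the natural killer cell sum in HLA→B6 replicate 1 and all 821 CPM in replicate 2. It also gave 452 CPM in B6→B6 replicate 3, and T cells held it at 2543 to 16387 CPM. In left-out HLA→B6 replicate 3 the sums of the 4 sets, in the order above, were 371, 186, 928 and 186 CPM. The natural killer cell sum lay within the B6→B6 range there. Among the sets that overlapped, T cell markers were at 0 to 860 CPM and at 468 and 821 CPM, and epithelial markers at 0 to 2635 CPM and at 1018 and 396 CPM. Cd74, H2-Aa, H2-Ab1, H2-Eb1, Ighm and Apoe were among the 19 genes that the study's methods name as markers of free RNA for SoupX. Of the 15 of these tested in leukocytes, 12 were higher in HLA→B6, 6 with an unadjusted p below 0.05, beside the 3.50% of all tested genes. In T cells, where its level is low, Cd74 stood at 17.1 to 104 CPM in B6→B6 mice and at 106, 52.3 and 0 CPM in HLA→B6 mice. Igkc in T cells stood at 0 to 16.3 CPM in B6→B6 mice and at 351, 80.7 and 27.6 CPM in HLA→B6 mice. Ighg2c was at 0 in the T cells of all B6→B6 mice and at 165, 13.6 and 8.48 CPM in HLA→B6 mice. Ighm and Ighg3 overlapped between the groups in T cells.

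The class II transcripts were not limited to leukocytes with B cell transcripts. In HLA→B6 replicate 1 an MHC class II UMI was seen in 53.0% of the 551 leukocytes with a B cell or plasma cell marker UMI and in 53.7% of the 313 without. In HLA→B6 replicate 2 the shares were 72.2% of 18 and 64.3% of 28. Among leukocytes without such a marker, the share was 5.88%, 0%, 1.52%, 54.2% and 6.67% in B6→B6 replicates 1 to 5. Replicate 4 thus resembled the HLA→B6 mice, and it also stood apart from the other B6→B6 mice by epithelial markers, found in 66.2% of its leukocytes against 0% to 17.6%. Without B6→B6 replicate 4, 8 genes passed the test, all higher in HLA→B6, and they included H2-Eb1, H2-Ab1, Cd74 and Apoe (adjusted p = 0.00798, 0.00798, 0.0392 and 0.00798, edgeR), with 4 mitochondrial transcripts as the rest. Each of the 7 mice was left out in turn, and this was the one with most genes past the test. The part of free RNA or of attached cells in these levels was not tested.

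**Figure D4:**
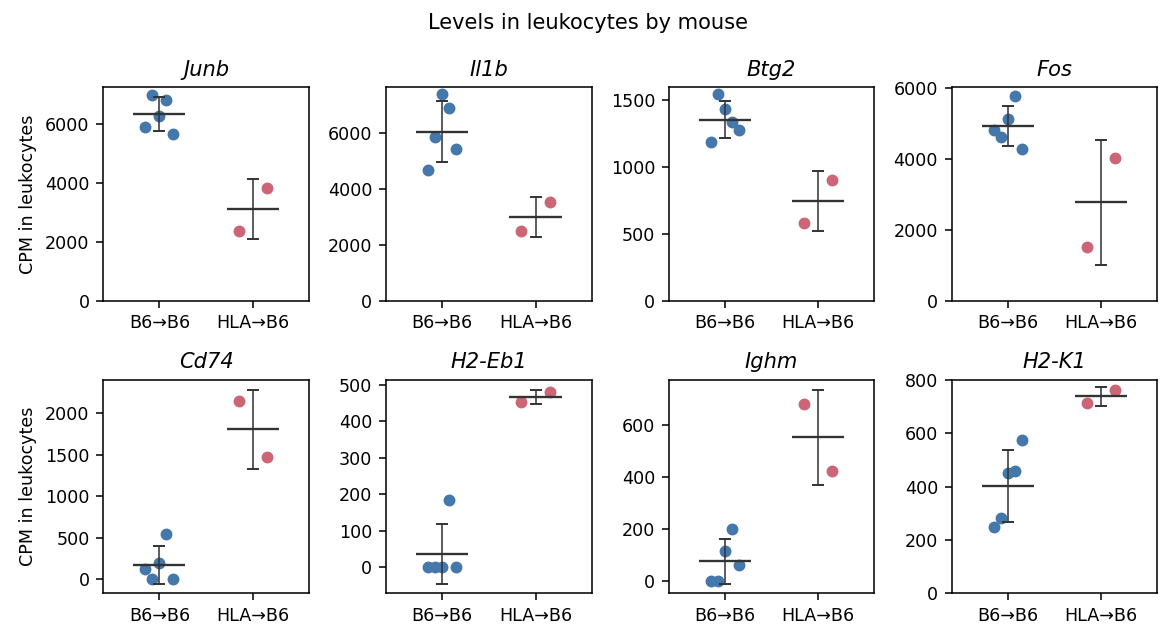
Level (CPM) of 8 of the named genes in the leukocytes of each mouse, 5 B6→B6 mice in blue and 2 HLA→B6 mice in red, with the group mean (long bar) and SD (whiskers). The upper row shows genes that were lower in HLA→B6, such as Junb with 5681 to 7020 against 2388 and 3849 CPM, and the lower row genes that were higher, and in each panel the groups do not overlap, though none passed the test.

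**Figure D5:**
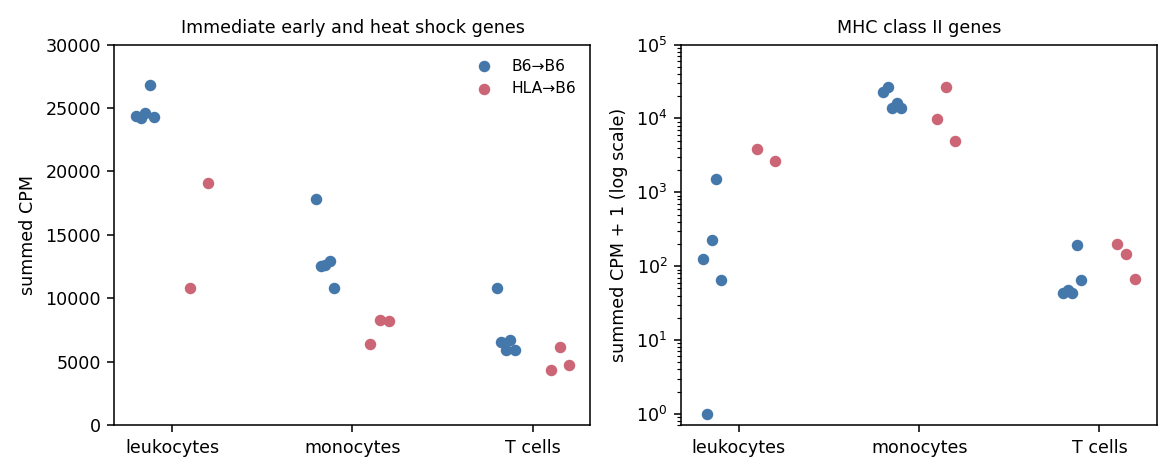
Summed level of the 15 immediate early and heat shock genes (left, CPM) and of the 7 MHC class II genes (right, CPM + 1 on a log scale) in leukocytes, monocytes and T cells, 1 point per mouse with at least 10 cells of the type. The left sum is lower in HLA→B6 mice in leukocytes and monocytes, and the right sum is higher in HLA→B6 mice in leukocytes, at 3821 and 2688 CPM against 0 to 1501 CPM, while in monocytes the groups overlap.

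Most of the genes that set these cells apart from other types overlapped between the groups, as did most of all tested genes. Of the 25 identity genes 24 were tested, and Il1b was the one without overlap. Over all 913 tested genes, 5.48% were higher and 4.93% lower without overlap. S100a8, S100a9 and Csf3r had log2 differences of -0.04 ± 0.31, -0.04 ± 0.30 and -0.01 ± 0.26, each smaller than its standard error. Retnlg stood at 4806 to 11279 CPM in B6→B6 and at 17743 and 8830 CPM in HLA→B6 (0.63 ± 0.38). Of the 19 neutrophil markers tested, 5 were higher and 14 lower in HLA→B6, with a median log2 difference of -0.15. The collagenase Mmp8 was the only one of them with an unadjusted p below 0.05 (0.96 ± 0.40), and it overlapped between the groups. Slpi, an inhibitor of neutrophil elastase, was the one marker without overlap, at 5032 to 6766 CPM in B6→B6 and at 4181 and 4868 CPM in HLA→B6 (-0.40 ± 0.19), though at 6494 CPM in the left-out HLA→B6 replicate 3. All 9 tested chemoattractant receptors were lower, with a median of -0.30 and 1 without overlap, where 471 of all 913 genes were lower and 4.93% were lower without overlap. For the 12 transcription factors of neutrophil differentiation, 6 were tested and all 6 were lower (median -0.51), 3 of them without overlap, Junb and Klf2 among them. Of 22 type I interferon response genes 6 were tested, 2 higher and 4 lower, and the summed level of the list ran from 1404 to 4496 CPM in B6→B6 and stood at 4095 and 2632 CPM in HLA→B6.

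Whether the group difference in leukocytes was unlike that in monocytes of the same mice was tested with an interaction term and the mouse as a block. Of 4473 genes, 28 passed, 20 with a positive term (0.447%) and 8 with a negative one (0.179%). A positive term means a log2 difference further up in leukocytes than in monocytes, whatever the size of either. Against alveolar macrophages in place of monocytes, 41 genes passed and none of the 10 named next did. The 10 with the smallest p against monocytes were 5 genes of the class II pathway and macrophages (Cd74, H2-Eb1, H2-Ab1, H2-Aa and Apoe, which carries lipids), with Ighm and Egr1 in the same direction and Ccl5, S100a8 and S100a9 in the other. The interaction was 3.74 ± 0.51 for Cd74 (adjusted p = 1.31e-09, edgeR), where monocytes alone had a log2 difference of -0.09. Of the 10, 6 were markers of free RNA in the study's methods. For S100a8 (-3.40 ± 0.62) the difference lay in monocytes, which had no UMI of it in 4 B6→B6 mice, 31.2 CPM in B6→B6 replicate 2, 278 CPM in HLA→B6 replicate 1 and 0 in HLA→B6 replicate 2. Egr1 stood at 28.6 and 340 CPM in HLA→B6 leukocytes against 288 to 549 CPM in B6→B6, with overlap, and had no UMI in HLA→B6 monocytes against 27.6 to 91.3 CPM in B6→B6. Ccl5 had no UMI in the monocytes of any B6→B6 mouse. H2-Eb1, H2-Ab1 and Apoe had no UMI in the leukocytes of 4 of the 5 B6→B6 mice, and Cd74, Ighm and H2-Aa had none in 2. All 10 terms thus rest on groups with zeros, so their size depends on the prior count of the fit and is no measure of fold. Without the mouse as a block no gene passed, with 295 at an unadjusted p below 0.05.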

How the data were processed

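The samples, groups and replicates were those of the deposited labels. Per the study's methods, the authors ran Cell Ranger on mm10 (GRCm38; versions not given in the sources used here), dropped barcodes with few UMIs and genes seen in few cells, applied SoupX to free RNA, and clustered with Seurat. The deposited values are whole-number UMI counts per gene and cell for 17921 genes, and whether they precede SoupX is not stated. Here, counts of leukocytes were summed per mouse with at least 10 of them and tested with edgeR 4.0.16 (R 4.3.3; quasi-likelihood test, TMM, filterByExpr with a minimum count of 10, Benjamini-Hochberg adjustment at 0.05), checked on simulated counts. Summed leukocyte counts ran from 15666 to 628861 UMIs per mouse, and the sums with few UMIs are the least precise. DESeq2 1.42.0, other scaling, filters, blocks and leaving out each mouse were the alternatives. Mice were taken from the sample column of the cell table. The numbers in the names of HLA→B6 cells differ from that column, so the group of each mouse is sure and the replicate numbers of the HLA→B6 mice are not. Doublets were marked with Scrublet (scanpy 1.11.5) and kept. Named genes were those of the lists, the 25 with the largest ratio to the next type (1 CPM added to both, at least 100 CPM), those past the threshold plus the 10 with the smallest p in each direction, the 10 with the smallest p of the interaction, and the 20 that varied most (at least 0.1 UMI per cell). There were 39 lists and marker sets in all, and 0 columns of per-sample values were left unused. The cells and lists were chosen with earlier results of these data known. Epx, Elane, Azu1, Bpi and Clec7a were not analysed here, and some genes that the rule names are not reported here. Separate animals were the replicates. Intervals cover counting error only.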

Additional observations from a re-analysis of the deposited data

Results flagged for a closer look

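Ngp in the leukocytes of B6→B6 replicate 1 stood apart from its group, at 33516 CPM against a group median of 199 CPM. Its Dixon's Q was 0.713, with 0.71 the critical value. H2-Eb1 in B6→B6 replicate 4 was also set apart, at 183 CPM against a median of 0. The other B6→B6 mice had no UMI of H2-Eb1, so any count in replicate 4 would have been set apart. Of 29 values tested in this way (Dixon's test) 2 stood apart, and chance sets apart about 1 in 20 groups. The Ngp value came from 1 cell.

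The group difference of 10 genes differed between leukocytes and monocytes in the test of the interaction (edgeR). The differences of the log2 differences, leukocytes minus monocytes, were 3.74 for Cd74, 4.57 for H2-Eb1, 3.77 for Apoe, 3.79 for H2-Ab1, 3.37 for Ighm, 3.56 for H2-Aa and 5.51 for Egr1, and they were -6.49 for Ccl5, -3.62 for S100a9 and -3.40 for S100a8. None of the 10 passed against alveolar macrophages, and all 10 terms rest on groups in which some mice had no UMI in leukocytes or monocytes, so that their size is no measure of fold.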

How the results depend on the processing

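The share of leukocytes was not called under any of the alternatives, and its sign was not stable. The difference was -0.161 percentage points among cells with at least 500 UMIs (exact permutation test, p = 0.929) and -1.44 with the replicate block (sign permutation over 3 pairs, p = 0.75), and leaving out 1 mouse moved it between -3.72 and 2.68, with -0.320, -0.318 and -0.279 without B6→B6 replicates 1, 4 and 5. In leukocytes 0 genes passed with DESeq2, with the other scaling, with 5 or 20 cells as the minimum, with at most 40 cells per mouse, without doublets or shared barcodes, with the linked libraries as a block, and without cells carrying B cell or plasma cell markers (the last chosen after seeing the data). With no filter on low counts 26 of 12942 genes passed. Of these, 23 were higher in HLA→B6, among them Igkc, Ighg2c, Jchain and Cd74, and 3 were lower, Chil3, Camp and Ngp. Igkc stood at 0 to 36.6 CPM in B6→B6 leukocytes and at 3498 and 141 CPM in HLA→B6 replicates 1 and 2. Ighg2c was at 0 in B6→B6 leukocytes and at 1073 and 141 CPM in the same HLA→B6 mice. With the replicate block 76 passed, but this fit rests on 2 pairs, since only replicates 1 and 2 have both groups. The deviations of these mice from their group means correlated at -0.13 and 0.13. With 2 HLA→B6 mice, the deviations of replicate 1 are those of replicate 2 with the sign reversed. These values therefore cannot show whether the numbers pair the mice. The HLA→B6 numbers are themselves in doubt, so pairing is not known, and the cause of the 76 was not tested. Leaving out 1 mouse gave 0 to 8 genes, 8 without B6→B6 replicate 4 and 2 (Igkc and Ighg2c) without HLA→B6 replicate 2. The 28 genes of the interaction became 0 without the mouse as a block and 10 to 54 with 1 mouse left out (16, 10, 22, 54 and 16 without B6→B6 replicates 1 to 5, and 12 and 13 without HLA→B6 replicates 1 and 2). With alveolar macrophages in place of monocytes 41 genes passed, none of the 10 named ones among them, and the Ccl5 term reversed to 0.20. Without HLA→B6 replicate 1 the terms of S100a8 and S100a9 reversed to 2.91 and 2.57, and with 1 mouse left out they ran from -7.35 to 2.91 and from -7.82 to 2.57. The lower depth of leukocytes held under each alternative (-1632 to -1495 UMIs with 1 mouse left out). The median share of leukocytes with a UMI of the 25 identity genes was 12.5% at 500 UMIs, 20.9% at 1000 UMIs and 17.5% without thinning. In the level of the 25 genes, Retnlg moved by more than the spread between mice, to 14582 CPM, when cells were pooled.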
